A study of Mus musculus with 8 samples.

Results

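The genes described here serve a pair of futile cycles, reactions that spend ATP and release heat without net product: phosphocreatine turnover and calcium cycling across the endoplasmic reticulum. The set was fixed by name and holds 9 genes, which were found among the 44674 rows of the expression tables by matching Ensembl identifiers to symbols in the GENCODE annotation of GRCm38. All 9 were found, and 8 of them had enough counts to enter the test, in which 14489 genes took part. Brown adipose tissue (BAT), the heat-producing fat depot, was sequenced from 4 control and 4 Ox1RΔSERT male mice that had been fed a high-fat diet (HFD) from 4 to 18 weeks of age. All 8 mice carried loxP-flanked alleles of the orexin receptor 1 gene on both chromosomes. The Ox1RΔSERT mice also carried Sert-Cre, a Cre recombinase expressed under the serotonin transporter gene, so that the receptor was deleted in serotonin transporter-expressing cells, while their control littermates lacked Cre. BAT was taken from every mouse at the end of a hyperinsulinemic-euglycemic clamp, during which insulin was infused and blood glucose held constant, so all values describe insulin-stimulated tissue and no unclamped BAT was compared. The comparison asks whether loss of the receptor in serotonergic cells was accompanied by a different expression of these genes in BAT.

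In creatine cycling, a creatine kinase transfers phosphate from ATP to creatine, and a phosphatase releases it again, so that the ADP returned keeps mitochondrial respiration running. Creatine itself is made in a pair of steps, by Gatm and then Gamt, or is taken up from the blood by the transporter Slc6a8. In calcium cycling, the SERCA pump Atp2a2 spends ATP to load the reticulum with calcium, which leaks back through release channels such as Ryr2. Both cycles are known as heat-producing pathways of thermogenic fat that do not need uncoupling protein 1.

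Total counts per library were between 35852708 and 50063339, and mitochondrially encoded genes took 40.0 to 46.8% of them in the controls and 44.6, 33.6, 34.0 and 36.2% in Ox1RΔSERT mice 11243, 11601, 11613 and 11708. The TMM scaling factors were 1.19, 1.07 and 1.14 in mice 11601, 11613 and 11708 and 0.880 to 0.968 in the other 5 mice. With the mitochondrially encoded genes removed before scaling, the log2 fold changes of Ckb and Alpl were -0.54 and -0.68, as with them. Under scaling by library size alone, without the TMM factors, they were -0.34 and -0.48. The unadjusted p by edgeR was then 0.0962 for Ckb and 0.0195 for Alpl, and the median log2 fold change over all genes tested stood at 0.22. Ucp1, the uncoupling protein that defines brown adipocytes, had a median of 2016 TPM (transcript abundance scaled to transcript length and library size) over the 8 mice. The targeted receptor gene Hcrtr1 had 0 to 0.158 CPM (counts scaled to the library size after TMM normalization) in the controls and 0 to 0.112 in the Ox1RΔSERT mice, so whole BAT does not check a deletion made in serotonin transporter-expressing cells. Several features of single libraries bear on the genes below. Skeletal muscle transcripts, summed over 20 sarcomere genes, reached 2210 CPM in control mouse 11253, 3129 CPM in Ox1RΔSERT mouse 11708 and 263 CPM in Ox1RΔSERT mouse 11601, against 28.9 to 83.3 CPM in the other 5 mice. In those 5 mice the sarcomere gene Myl1 alone was at 25.1 to 35.8 CPM. Macrophage transcripts, summed over 9 genes, were at 115 to 256 CPM in the controls and at 188, 927, 206 and 729 CPM in Ox1RΔSERT mice 11243, 11601, 11613 and 11708. Fibroblast transcripts, summed over 7 genes, were at 468 to 1230 CPM in the controls and at 808, 6613, 1203 and 3168 CPM in the same Ox1RΔSERT mice. In bulk tissue, fewer cells of a type and less RNA per cell cannot be told apart.

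Levels of different genes were compared per transcript length, in TPM. Atp2a2 had the highest level of the set, with a median of 58.2 TPM and a range of 41.1 to 73.5 TPM over the 8 mice. Ckb, the cytosolic brain-type creatine kinase, followed at a median of 16.8 TPM with a range of 13.9 to 25.8 TPM. Next came Slc6a8 at 5.49 TPM, Alpl at 4.35 TPM, Gamt at 1.93 TPM, Ryr2 at 1.05 TPM, Gatm at 0.550 TPM, Ckmt2 at 0.197 TPM and Ckmt1 at 0.0187 TPM. Of the 8 neighboring pairs in this order, the ranges over the mice were apart for Atp2a2 over Ckb, Ckb over Slc6a8 and Gamt over Ryr2, and overlapped in the other 5 pairs. The mitochondrial creatine kinases were thus the least abundant of the set by their medians, although Ckmt2 spanned 0.0115 to 17.0 TPM.

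**Figure D1:**
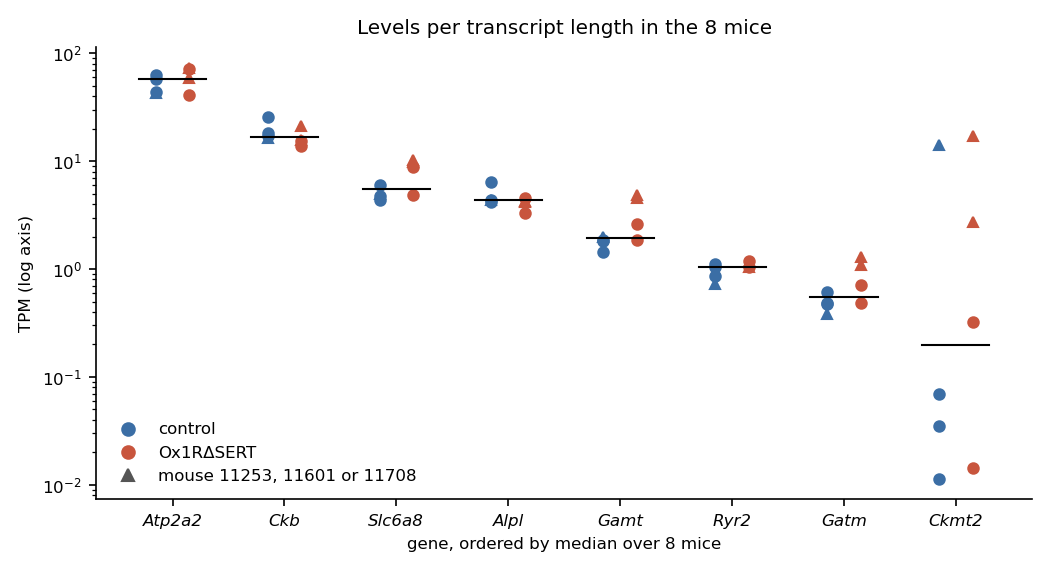
Level of 8 genes in TPM (log axis) in each of the 8 mice, with control mice in blue, Ox1RΔSERT mice in red and a line at the median; triangles mark mice 11253, 11601 and 11708. Atp2a2 lies at 41.1 to 73.5 TPM, whereas Ckmt2 spans 0.0115 to 17.0 TPM, with the triangles at the top; Ckmt1, which is at 0 in 3 mice, is not drawn.

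Ckb and Alpl were the members whose TMM-normalized CPM in the Ox1RΔSERT mice all lay below those of the controls, which did not hold in TPM. No gene of the whole table passed an adjusted p of 0.05 in the edgeR quasi-likelihood test, so 0 of 14489 genes (0%) and no member was called. The counts at an unadjusted p under 0.05 are therefore given as a description: Ckb and Alpl were lower and Slc6a8 and Gamt higher, beside 719 of all genes tested (4.96%) that were lower and 1481 (10.2%) that were higher at this level. DESeq2 called 265 of the 15119 genes to which it gave an adjusted p, 1 of them a member. Values of single mice are TMM-normalized CPM, listed for control mice 10684, 11253, 11560 and 11563 and then for Ox1RΔSERT mice 11243, 11601, 11613 and 11708.

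Ckb, on the reverse strand of chromosome 12 from 111669361 to 111672338, encodes the creatine kinase that works in the creatine cycle of thermogenic fat. Its values were 41.4, 28.4, 27.6 and 28.6 CPM in the controls and 25.2, 23.9, 19.8 and 17.9 CPM in the Ox1RΔSERT mice. The groups did not overlap, and control mouse 10684 stood above the other controls. The means were 31.5 ± 6.59 CPM and 21.7 ± 3.42 CPM (SD, n = 4 each), with a log2 fold change of -0.54 (SE 0.17) and an adjusted p of 0.316 by edgeR. The exact two-sided permutation test over the 70 assignments of mice to groups gave p = 0.0286, the smallest value it can give, and the groups were apart in this direction for 2.81% of all genes tested. DESeq2 gave Ckb an adjusted p of 0.103, and over all alternatives in edgeR, DESeq2 and limma the adjusted p ran from 0.0284 to 0.996. Without control mouse 10684, the log2 fold change was -0.38, and leaving out each mouse in turn gave -0.62 to -0.38.

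Alpl, on the reverse strand of chromosome 4 from 137741733 to 137796384, encodes tissue-nonspecific alkaline phosphatase, the enzyme that hydrolyzes phosphocreatine in mitochondria of thermogenic fat. Its values were 16.3, 13.2, 11.4 and 11.3 CPM in the controls and 8.82, 6.70, 9.49 and 7.63 CPM in the Ox1RΔSERT mice, again with no overlap. The means were 13.0 ± 2.33 CPM and 8.16 ± 1.24 CPM (SD, n = 4 each), with a log2 fold change of -0.68 (SE 0.16) and an adjusted p of 0.316 by edgeR. DESeq2 called Alpl, with an adjusted p of 0.0335, among the 0.212% of genes that it called lower. This call was kept without Ox1RΔSERT mouse 11243 or 11613 and was lost without any of the other 6 mice, with adjusted p by DESeq2 from 0.00829 to 0.317 as each mouse was left out, and up to 0.996 over all alternatives in edgeR, DESeq2 and limma. The exact permutation test gave p = 0.0286, as for Ckb.

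Brown adipocyte transcripts, taken as a sum of TMM-normalized CPM, were also lower in the Ox1RΔSERT mice. The sum over 14 brown adipocyte genes was 14899 to 16117 CPM in the controls and 9744 to 14234 CPM in the Ox1RΔSERT mice. Within the controls the order differed, since mouse 10684 had the lowest sum but the highest Ckb and Alpl. Of the 14 genes, 13 had a log2 fold change below 0 and 4 were lower at an unadjusted p under 0.05, among them Ucp1, at 4263 ± 585 CPM and 2934 ± 615 CPM (SD, n = 4 each). This difference depended on the scaling. In TPM the groups overlapped for Ucp1, at 1863 to 2638 TPM in the controls and 1893 to 2022 TPM in the Ox1RΔSERT mice. The part of brown adipocyte transcripts in the values of Ckb and Alpl was not tested. Without mice 11601 and 11708, the log2 fold change was -0.48 (SE 0.20) for Ckb and -0.51 (SE 0.18) for Alpl, each with an adjusted p of 0.996 by edgeR. Without the 3 mice with most muscle transcripts it was -0.53 (SE 0.22) and -0.50 (SE 0.20), each with an adjusted p of 0.983 by edgeR. The part of macrophage and fibroblast transcripts in the values of these genes was not tested either. On the TPM scale, where the median over all genes tested stood at 0.32 for log2(TPM + 0.1), the log2 fold changes were -0.23 for both Ckb and Alpl. This is -0.55 relative to that median for each, and neither had an unadjusted p under 0.05 on that scale. In TPM the groups overlapped for both genes. Ckb was at 21.2 TPM in Ox1RΔSERT mouse 11601, against 16.3 to 25.8 TPM in the controls. Alpl was at 4.58 TPM in Ox1RΔSERT mouse 11613, against 4.19 to 6.35 TPM in the controls.

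**Figure D2:**
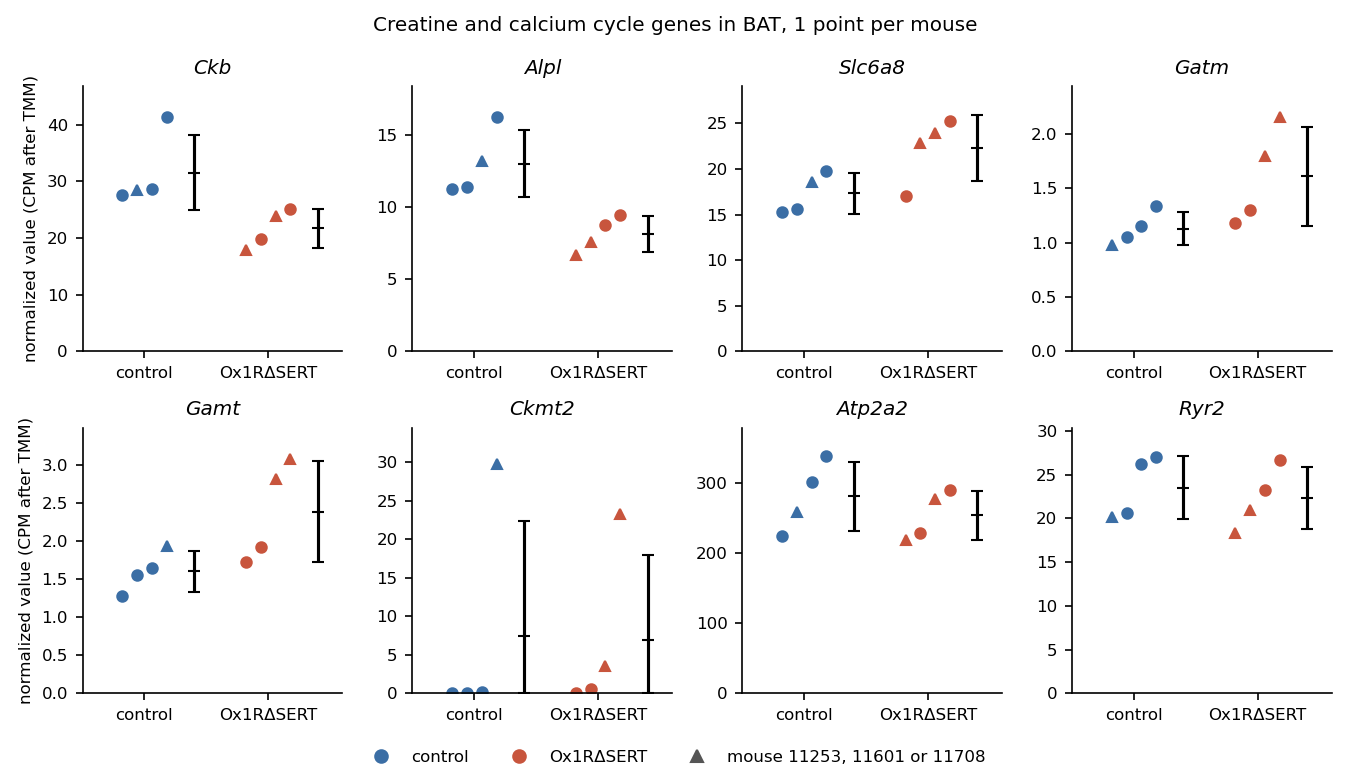
TMM-normalized CPM of 8 genes, 1 point per mouse, with the mean ± SD of each group in black (the bar of Ckmt2 is drawn down to 0 at most); triangles mark mice 11253, 11601 and 11708. For Ckb and Alpl the Ox1RΔSERT points all lie below the control points, for Slc6a8 3 of 4 lie above them, and for Ckmt2 the high points are triangles.

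The start regions of Ckb and Alpl are shown because their groups did not overlap in TMM-normalized CPM. Each line gives the 150 bases before the first annotated start site in RefSeq (GRCm38.p6), 5′ to 3′ on the gene's own strand, with matched motifs in capitals. Ckb lies at chr12:111672339-111672488 and Alpl at chr4:137796385-137796534, both on the reverse strand.
Ckb: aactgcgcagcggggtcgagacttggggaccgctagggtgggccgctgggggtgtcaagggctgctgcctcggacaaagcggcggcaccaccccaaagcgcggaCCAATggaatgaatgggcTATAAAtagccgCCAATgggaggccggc
Alpl: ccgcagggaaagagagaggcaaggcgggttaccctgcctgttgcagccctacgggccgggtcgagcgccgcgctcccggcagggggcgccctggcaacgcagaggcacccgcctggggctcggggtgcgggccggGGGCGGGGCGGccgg
In the Ckb window the capitals mark the TATA box letters TATAAA at position -28, counted back from the start site, and the letters of a CCAAT box at positions -46 and -16. In the Alpl window they mark the GC box letters GGGCGG at positions -15 and -10, which overlap by 1 base. Both strands of 32851 windows of the same length were searched. The TATA box letters were found in 7.57% of them, those of the CCAAT box in 24.5% and those of the GC box in 28.6%. The window of the second annotated Alpl start held none of these, nor any of the other motifs searched. The other motifs were the E-box letters CAGCTG (8.39% of windows) and, as a second form of that box, CACCTG (10.6%). An estrogen-related receptor half-site was searched as AAGGTCA (2.31% of windows), and a cAMP response element was searched as TGACGTCA (1.36%). The windows of Ckb and Alpl thus shared no motif among those searched, and a match is only a description of letters.

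The genes that supply creatine had higher mean values in the Ox1RΔSERT mice. Slc6a8, the plasma membrane creatine transporter on chromosome X (73673150 to 73682502), had 15.3, 18.6, 15.7 and 19.8 CPM in the controls and 17.1, 22.9, 25.3 and 23.9 CPM in the Ox1RΔSERT mice. Mouse 11243 lay within the control range and the other 3 lay above it, so no member lay above the controls in every Ox1RΔSERT mouse, as 2.69% of all genes tested did. The means were 17.3 ± 2.22 CPM and 22.3 ± 3.62 CPM (SD, n = 4 each), the log2 fold change was 0.36 (SE 0.15) and the adjusted p by edgeR was 0.318. The exact permutation test gave p = 0.0857.

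Gatm, the arginine:glycine amidinotransferase of the first step of creatine synthesis (chromosome 2, 122594467 to 122611303), had 1.33, 0.982, 1.15 and 1.05 CPM in the controls and 1.18, 1.79, 1.30 and 2.16 CPM in the Ox1RΔSERT mice. Gamt, the guanidinoacetate methyltransferase of the second step (chromosome 10, 80258151 to 80261012), had 1.65, 1.93, 1.29 and 1.55 CPM in the controls and 1.72, 2.82, 1.93 and 3.08 CPM in the Ox1RΔSERT mice. For both enzymes only mice 11601 and 11708 lay above every control. The log2 fold change was 0.51 (SE 0.24) for Gatm, with an adjusted p of 0.352 by edgeR and an exact permutation p of 0.114. For Gamt it was 0.58 (SE 0.24), with an adjusted p of 0.325 by edgeR and an exact permutation p of 0.0857. These genes rest on few reads, 31 to 105 counts per mouse for Gatm and 57 to 150 for Gamt.

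Mice 11601 and 11708 are those with the most macrophage and fibroblast transcripts, and all 9 macrophage and all 7 fibroblast genes were higher in the Ox1RΔSERT mice at an unadjusted p under 0.05. Without these 2 mice, the log2 fold change was 0.20 (SE 0.23) for Gamt, 0.14 (SE 0.24) for Gatm and 0.30 (SE 0.18) for Slc6a8. Among 7358 genes with a mean of at least 10 CPM, those whose log2 values were most like Gamt over the 8 mice were Ptprc (r = 0.988), which encodes the leukocyte antigen CD45, Tgfbi (r = 0.987) and Cyth4 (r = 0.987). The genes most like Gatm were Mdm4, Oas2 and Serpinb2 (r = 0.976 to 0.982), and those most like Slc6a8 were B4galt1, Wdr1 and Arpc3 (r = 0.954 to 0.970). These r values describe the closest genes among many over 8 mice and share the same libraries. The part of macrophages and fibroblasts in the 3 creatine supply genes was not tested.

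**Figure D3:**
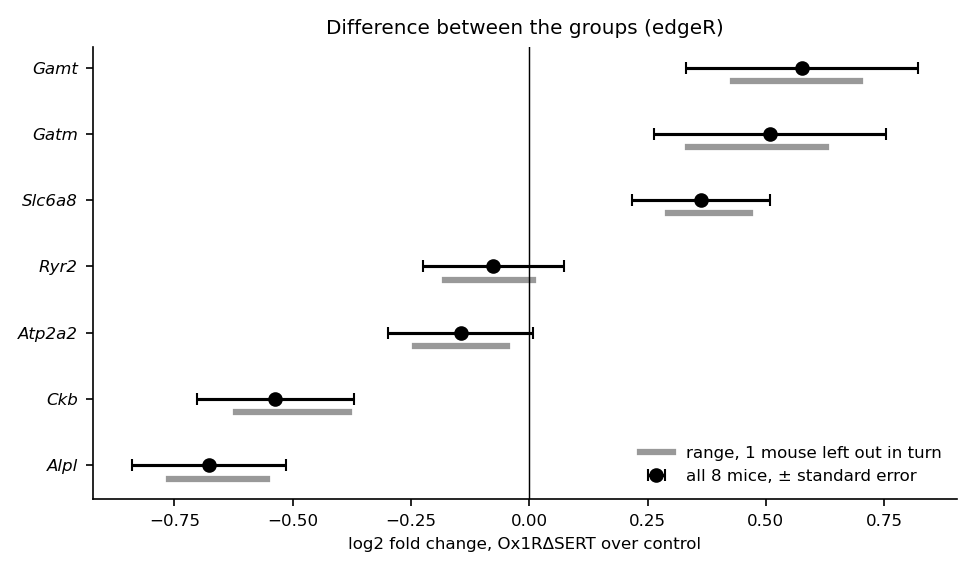
Log2 fold change of 7 genes, Ox1RΔSERT over control, with the standard error from edgeR (black) and the range obtained as each mouse was left out in turn (gray). Alpl and Ckb stay below 0, Slc6a8, Gatm and Gamt stay above 0, and Ryr2 crosses 0; Ckmt2 is not drawn because its range runs from -2.38 to 6.53.

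Ckmt2, the sarcomeric mitochondrial creatine kinase, followed skeletal muscle transcripts from mouse to mouse. It lies on the reverse strand of chromosome 13 from 91853387 to 91876885. Its values were 0.131, 29.8, 0.068 and 0.021 CPM in the controls and 0.633, 3.61, 0.022 and 23.2 CPM in the Ox1RΔSERT mice. The corresponding counts were 5, 941, 3 and 1, and 29, 183, 1 and 1131. Mice 11253, 11601 and 11708 held nearly all of them and are the mice with the most sarcomere transcripts, while mice 11560, 11563 and 11613 were at or under the floor of 3 counts. The groups overlapped, with a log2 fold change of -0.11 (SE 1.99), an adjusted p of 0.982 by edgeR and an exact permutation p of 0.943. DESeq2 gave no p for Ckmt2. Leaving out control mouse 11253 alone turned the log2 fold change to 6.53 (adjusted p of 0.36 by edgeR and 0.0322 by DESeq2), the lowest adjusted p among its alternatives, which ran up to 0.996. Without Ox1RΔSERT mice 11601 and 11708 it was -4.46 (SE 2.94).

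The muscle score was the mean log2(CPM + 0.1) of the 20 sarcomere genes, none of which is a member. Over the 8 mice Ckmt2 correlated with this score with Pearson's r = 0.986 (exact permutation p = 0.000422, adjusted 0.00379 over the 9 members) and Spearman's rho = 0.952 (exact permutation p = 0.00114, adjusted 0.0103). Without mice 11253 and 11708, the pair farthest from the median score, r was 0.980 (exact permutation p = 0.00694, n = 6), and with values centered on the genotype means it was 0.990. Of the other members only Gamt had an adjusted p under 0.05 for rho (rho = 0.881, adjusted p = 0.0326 by exact permutation), not for r (r = 0.768, adjusted p = 0.130 by exact permutation). For the remaining 7 the adjusted p was 0.249 or more by either measure, with r = -0.62 for Ryr2, 0.49 for Gatm, -0.43 for Ckb, 0.36 for Slc6a8, -0.36 for Alpl, -0.28 for Atp2a2 and -0.12 for Ckmt1. Several of these moved without mice 11253 and 11708: r was then -0.78 for Atp2a2 (exact permutation p = 0.050, n = 6), -0.72 for Alpl (exact permutation p = 0.114, n = 6) and 0.83 for Gatm (exact permutation p = 0.0472, n = 6), with p not adjusted, while r was -0.65 for Ryr2, -0.24 for Ckb and 0.84 for Gamt. Spearman's rho was then -0.886 for Atp2a2 (exact permutation p = 0.0333, n = 6, not adjusted).

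In the 3 mice with most muscle transcripts Ckmt2 was at 14.2 TPM in 11253, 2.72 TPM in 11601 and 17.0 TPM in 11708. Ckm, the cytosolic creatine kinase of muscle and a paralog of Ckb, was at 105 TPM, 18.0 TPM and 215 TPM in the same mice. Ckmt2 was thus 13.5%, 15.1% and 7.93% of Ckm in TPM, and in the other mice Ckm was at 0.0708 to 3.45 TPM. Mouse 11708 also differed in the kind of muscle transcripts, since Myh7, the slow-fiber myosin heavy chain, was at 74.8 CPM there and at 0 to 0.285 CPM in the other 7 mice. The genes most like Ckmt2 were Mybpc1 (r = 0.997), Xirp2 (r = 0.995) and Myh1 (r = 0.995), all 3 of them sarcomere genes of the score. Their reads came mainly from mice 11253 and 11708, as did those of Ckmt2. These r values therefore repeat the correlation with the score and add no separate support. Of 9 cardiac genes, Myl4 was at 1.93 to 5.10 CPM in the 8 mice and held most of the sum, and the atrial genes Nppa and Myl7 were at 0 in every mouse. The sum over the 8 cardiac genes other than Myl4 was 1.17 CPM in mouse 11253, 0.822 CPM in mouse 11708 and 0.374 CPM in mouse 11601, against 0.0630 to 0.196 CPM in the other 5 mice, so these transcripts were low but highest in the same 3 mice. Their part in the values of Ckmt2 was not tested.

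**Figure D4:**
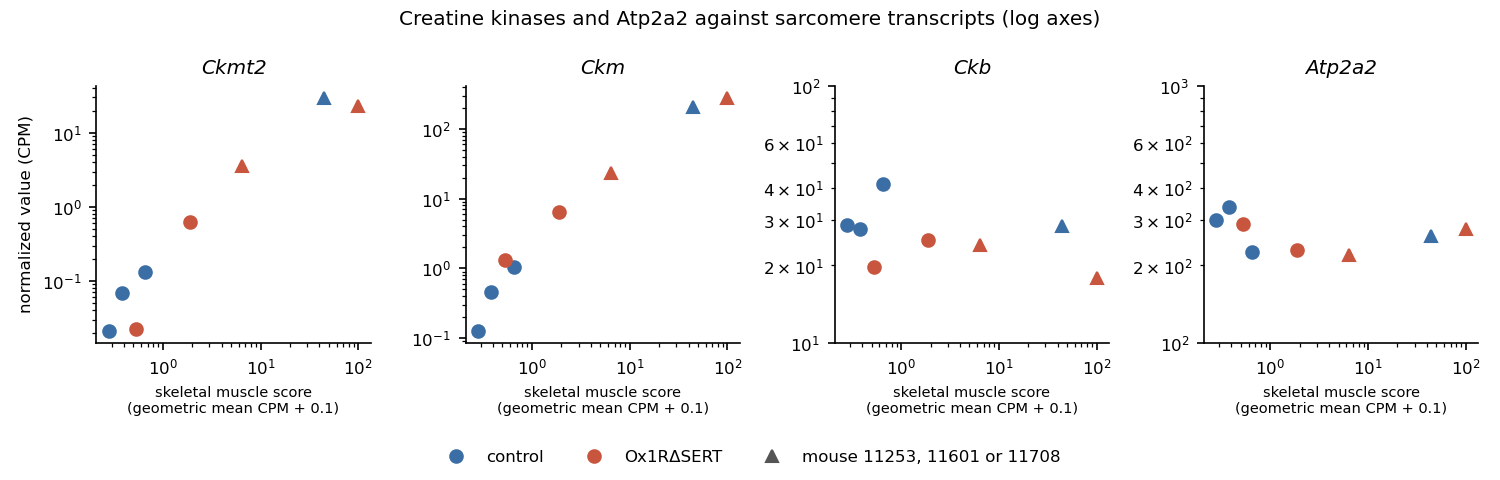
TMM-normalized CPM of Ckmt2, Ckm, Ckb and Atp2a2 against the skeletal muscle score, both on log axes, with 1 point per mouse (control blue, Ox1RΔSERT red, triangles for mice 11253, 11601 and 11708). Ckmt2 (r = 0.986) and Ckm climb with the score, while Ckb (r = -0.43) and Atp2a2 (r = -0.28) do not.

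The start region of Ckmt2 is shown beside this result. It is the 150 bases at chr13:91876886-91877035, reverse strand, from the same RefSeq table, 5′ to 3′ with motifs in capitals.
Ckmt2: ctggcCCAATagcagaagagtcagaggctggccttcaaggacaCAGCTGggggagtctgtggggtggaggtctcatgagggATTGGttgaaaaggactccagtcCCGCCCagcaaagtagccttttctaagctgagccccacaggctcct
The capitals mark the CCAAT box at position -145, the E-box letters CAGCTG at position -107, a CCAAT box read on the other strand at position -69 and a GC box read on the other strand at position -46. This E-box is a letter sequence that the muscle regulator MyoD can bind, and it was present in 8.39% of the 32851 windows. Neither the Ckb nor the Alpl window held it. The window of Ckm, which also climbed with the muscle score, held none of the motifs searched.

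Ckmt1, the ubiquitous mitochondrial creatine kinase (chromosome 2, 121357714 to 121363737), was close to absent from the reads. Its counts were 3, 2, 1 and 0 in the controls and 1, 0, 2 and 0 in the Ox1RΔSERT mice, all at or under the floor of 3 counts, which corresponds to 0.0591 to 0.0950 CPM in these libraries. It did not pass the filter on low counts, and a difference between the groups was not detectable at this depth.

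Other genes of creatine and phosphate handling were listed as partners of the cycle. Of the 14 listed, 13 were tested, none was called or had an unadjusted p under 0.05, and the median log2 fold change was -0.08, beside 0.00 over all genes tested. Phospho1, a phosphatase of phosphocholine, had a median of 382 TPM against 4.35 TPM for Alpl. Phospho1 had 261, 411, 425 and 499 CPM in the controls and 340, 210, 501 and 229 CPM in the Ox1RΔSERT mice, so the groups overlapped. The ADP/ATP carriers Slc25a4 and Slc25a5, which exchange the nucleotides that creatine kinase uses, had log2 fold changes of -0.14 and -0.18.

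The calcium cycle members overlapped between the groups. Atp2a2, the SERCA2 pump (chromosome 5, 122453513 to 122502225), had 225, 260, 339 and 301 CPM in the controls and 229, 219, 291 and 278 CPM in the Ox1RΔSERT mice. The means were 281 ± 49.3 CPM and 254 ± 35.3 CPM (SD, n = 4 each), with a log2 fold change of -0.15 (SE 0.15), an adjusted p of 0.653 by edgeR and an exact permutation p of 0.457. Ryr2, a ryanodine receptor that releases calcium from the reticulum (chromosome 13, 11553102 to 12106945), had 20.6, 20.1, 26.2 and 27.0 CPM in the controls and 26.7, 18.3, 23.2 and 21.0 CPM in the Ox1RΔSERT mice. Its log2 fold change was -0.08 (SE 0.15), with an adjusted p of 0.823 by edgeR and an exact permutation p of 0.714. The sign for both genes turned positive under scaling by library size alone, where the median of all genes moved by 0.22, and relative to that median they were at -0.14 for Atp2a2 and -0.10 for Ryr2. The genes most like Atp2a2 over the 8 mice were the clock gene Per1 (r = 0.973), Ccnl2 (r = 0.961) and the clock gene Per2 (r = 0.955). Those most like Ryr2 were Tsg101, Mrps6 and Vps8 (r = 0.936 to 0.964), those most like Ckb were Rom1, Mrpl19 and Gmps (r = 0.956 to 0.964), and those most like Alpl were Nif3l1, Apoc1 and Oxct1 (r = 0.960 to 0.973).

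Which calcium pump prevailed per transcript length varied with the mouse. Atp2a1, the fast-muscle SERCA1 pump, was at 58.8 TPM in mouse 11253 and 134 TPM in mouse 11708, above the 42.7 and 73.5 TPM of Atp2a2 in the same mice. In the other 6 mice Atp2a1 was at 0.0454 to 11.5 TPM, below Atp2a2. Atp2a3 had a median of 1.46 TPM. The muscle release channel Ryr1 ranged from 0.00211 to 4.73 TPM with its highest values in mice 11708 and 11253, and Ryr3 did not exceed 0.0228 TPM. The SERCA inhibitors were scarce: Pln did not exceed 0.0694 TPM, and Sln was at 1.87 TPM in mouse 11253, 5.61 TPM in mouse 11708 and at most 0.487 TPM elsewhere.

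Of 37 reticulum calcium genes matched, 28 were tested, with 1 higher and 0 lower at an unadjusted p under 0.05 and a median log2 fold change of 0.14. The tested genes include the muscle forms Atp2a1 (log2 fold change 0.70, SE 2.18) and Ryr1 (0.88, SE 2.06), highest in mice 11253 and 11708. Their part in this median was not tested. The 1 higher gene at an unadjusted p under 0.05 was Camk2g, a calcium/calmodulin-dependent kinase subunit. It had a log2 fold change of 0.32 and values above every control in 2 of 4 Ox1RΔSERT mice. All 12 genes of mitochondrial calcium transport were tested, with 2 higher and 3 lower at this level and a median of -0.03. Mcub, the dominant-negative uniporter subunit, had 0.810 to 1.30 CPM in the controls and 1.13, 6.31, 1.19 and 4.89 CPM in the Ox1RΔSERT mice, the high values being those of 11601 and 11708. The sodium/calcium exchanger Slc8b1 had a log2 fold change of 0.41, and the transport or regulatory genes Mcur1, Micu3 and Letm1 had -0.35, -0.40 and -0.39.

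The lipid cycle, in which triglycerides are split and rebuilt, was listed as another ATP-spending cycle of fat. All 17 genes were tested, 15 of them had a log2 fold change below 0, and the median was -0.27. The glycerol kinase Gk was lower at an unadjusted p under 0.05, with 277, 544, 732 and 706 CPM in the controls and 409, 338, 392 and 237 CPM in the Ox1RΔSERT mice. Its groups overlapped through control mouse 10684, and its log2 fold change was -0.72 with an adjusted p of 0.325 by edgeR. No gene in any of these lists was called by edgeR.

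**Figure D5:**
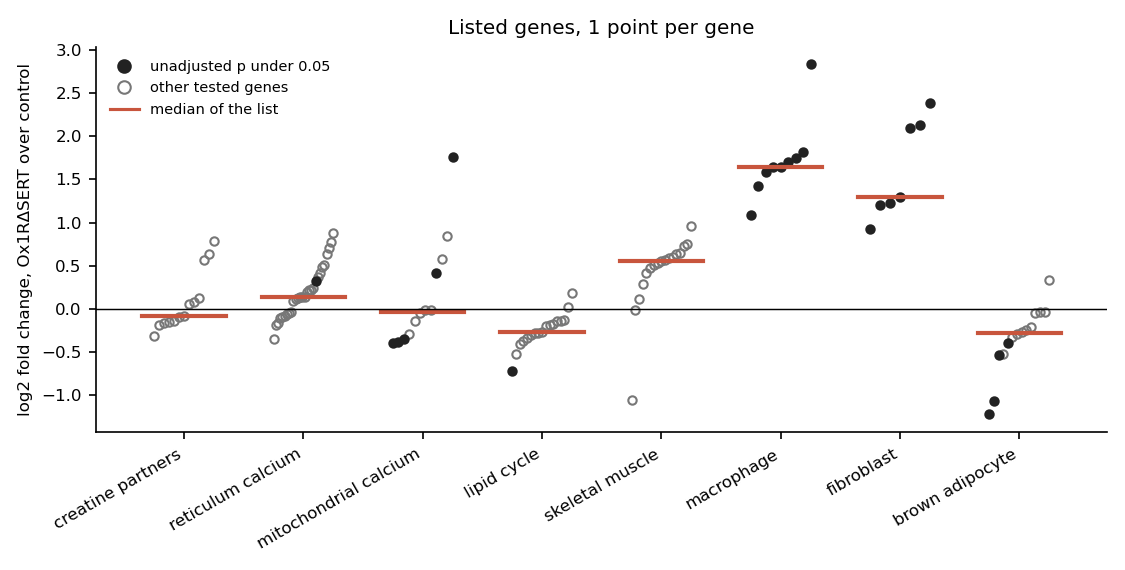
Log2 fold change of each tested gene (edgeR, Ox1RΔSERT over control) in 8 lists, with filled points for an unadjusted p under 0.05 and a red line at the median of the list. The creatine, reticulum calcium and mitochondrial calcium lists lie around 0 (medians -0.08, 0.14 and -0.03), the lipid cycle and brown adipocyte genes mostly below it (-0.27 and -0.28), and the macrophage and fibroblast genes above it (1.65 and 1.29).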

How the data were processed

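BAT of 8 male mice was sequenced on an Illumina platform from poly-A selected, stranded libraries, 1 library per mouse. The authors quantified transcripts with Salmon 0.14.1 within nf-core/rnaseq 1.4 against mouse GRCm38 and used DESeq2 1.26.0. STAR is also named in the submitters' processing notes, and the annotation release and strand setting are not given in the sources used here. The deposited tables hold estimated counts per gene, and the deposited TPM are scaled for length and depth. Identifiers were matched to symbols in GENCODE M21, with 44118 of 44674 rows matched and rows without a symbol holding 0.0347 to 0.0485% of counts. Those rows carry an Ensembl identifier and stayed in library sizes and tests.

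Counts were rounded and tested with the quasi-likelihood test of edgeR 4.0.16 (filterByExpr, TMM, Benjamini-Hochberg over 14489 genes, threshold 0.05), with genotype as the only term. CPM are counts scaled to the TMM-normalized library size. Permutation tests were exact and two-sided, and those between the groups used CPM without a log2 transform. Correlations were computed with scipy 1.17.1 on log2 CPM with a pseudocount of 0.1. The scripts were tested on simulated data. DESeq2 1.42.0, limma 3.58.1 (voom and trend on log2 TPM), other scalings and filters, a muscle covariate and mice left out were alternatives. Mouse numbers in the labels name separate animals, and no litter or batch is given, so p-values measure the spread between mice. Floors cover counting error only, whereas SDs and standard errors include the variation between mice. The exons of Ckmt2 and Atp2a2 share 84 and 83 bases, and those of Ckmt1 share 10 bases, with genes on the opposite strand.

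The members and gene lists were chosen with earlier results of these data known. Named besides the members were pathway genes at an unadjusted p under 0.05, the paralogs, the markers and, for each member, the 3 genes with the highest r. Myh7, Myl1, Nppa and Myl7, the adenine nucleotide carriers and Phospho1 were named after their values were seen.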

Additional observations from a re-analysis of the deposited data

Results flagged for a closer look

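Within each group of 4 mice, a value was marked when its gap to the nearest other mouse, divided by the range of the group, exceeded Dixon's critical value for 4 samples. Of 16 groups tested, 3 had such a value, where chance marks about 1 in 20. Ckb stood at 41.4 CPM in control mouse 10684, against 27.6 to 28.6 CPM in the other controls. Ckmt2 stood at 29.8 CPM in control mouse 11253 and at 23.2 CPM in Ox1RΔSERT mouse 11708, the 2 mice with the most skeletal muscle transcripts.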

How the results depend on the processing

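The comparison of the groups was recomputed under 28 alternatives. No gene was called by any edgeR or limma alternative, whereas DESeq2 called 265 genes and 1 member (Alpl), and 17 to 1516 genes and 0 to 3 members as each mouse was left out. The lowest count came without control mouse 11560 (17 of 16794 genes) or Ox1RΔSERT mouse 11601 (17 of 19720 genes). The highest came without Ox1RΔSERT mouse 11243 (1516 of 16057 genes), where Ckb, Slc6a8 and Alpl were called. Without control mouse 11253, DESeq2 called Ckmt2 instead. Ckb and Alpl stayed below 0, and Gatm, Gamt and Slc6a8 above 0, in every alternative, but Slc6a8 and Gamt had an unadjusted p over 0.05 in edgeR with the muscle score as a covariate or without any of mice 10684, 11560, 11601 and 11708. Leaving out the 3 mice with most muscle transcripts was chosen after seeing the data. The log2 fold change of Ckmt2 turned to 2.20 with limma voom, 0.26 with library size only, 0.60 with log2(TPM + 1) and 1.5 with log2(TPM + 0.1), and ran from -2.38 to 6.53 (edgeR) and from -2.41 to 6.53 (DESeq2) as each mouse was left out, and was -4.46 without mice 11601 and 11708, the lowest of its alternatives. Atp2a2 turned to 0.074, 0.22 and 0.23 with library size only, log2(TPM + 1) and log2(TPM + 0.1). Ryr2 turned to 0.12, 0.13 and 0.24 under the same 3 scalings, to 0.0084 with the muscle covariate, 0.091 without mice 11601 and 11708 and 0.020 without the 3 muscle mice, and ran from -0.18 to 0.0083 (edgeR) and from -0.19 to 0.0048 (DESeq2) as each mouse was left out. The median over all genes moved by 0.22, 0.23 and 0.32 under these scalings, and the cause of the other changes was not tested. Ckmt2 could not be fitted with at least 10 counts in every mouse or without the 3 muscle mice. The correlation of Ckmt2 with the muscle score stayed between 0.980 and 0.993. No paired analysis was possible because the labels give no litter or other pairing of mice between the groups.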
